A study of Homo sapiens with 4 samples.

Results

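The genes described here are 10 immediate early genes and close relatives of the AP-1 and EGR families, namely FOS, FOSB, FOSL1, FOSL2, JUN, JUNB, JUND, ATF3, EGR1 and IER3. They were chosen by name, with earlier results of these data known. Every probe whose gene symbol in the authors' annotated table was one of the 10 was taken. This gave 14 probes of the 58201 on the array and 10 of its 34755 genes. Expression was measured in SUM149, an established line of inflammatory breast cancer cells, in 4 cultures: untreated cells and cells given 2.5 uM Ricolinostat (ACY1215), an inhibitor of histone deacetylase 6, for 3, 6 or 12 h. Cells had been left to attach for a day before treatment. Each culture was put on 1 two-colour array, with its RNA in the Cy5 channel and a reference labelled as a pool of all untreated and treated cells in the Cy3 channel. There were no replicates and 0 vehicle arrays, so no test between conditions was possible, and the hours spent in culture and the hours with the drug cannot be told apart. RNA came from whole cultures, so a change in every cell and a change in a fraction of the cells cannot be told apart.

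AP-1 is a dimer of basic leucine zipper proteins. FOS proteins cannot pair with one another and need a JUN partner, while JUN proteins can also pair among themselves and with ATF proteins. EGR1 is a zinc finger factor that binds GC-rich sites. FOS, EGR1 and several others are transcribed within minutes of a growth factor or stress signal, from promoters where serum response factor sits on a CArG box and CREB or ATF proteins sit on cAMP response elements, and their transcripts are short-lived. In epithelial tumour cells AP-1 is known for driving proteases and cytokines of invasion and inflammation.

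Some sites through which such genes respond can be read directly in a promoter. Promoters of the 4 genes on which the results turn are shown, for ATF3 at the first of its listed starts. They run from 250 bases before the start of transcription through the first 50 bases, 5′ to 3′ on the gene's own strand, taken from RefSeq on GRCh38.p14. Capitals mark the motifs searched on both strands: TGACGT (the core of a cAMP response element, written ACGTCA where it lies on the other strand), TGACATCA (the JUN and ATF type of AP-1 site), TGACTCA (the classical AP-1 site), the CArG box of serum response factor, and the EGR sites GCGTGGGCG and GCGGGGGCG. FOS lies at chr14:75278578-75278877 on the plus strand, JUN at chr1:58783998-58784297 on the minus strand, ATF3 at chr1:212565157-212565456 on the plus strand and EGR1 at chr5:138465229-138465528 on the plus strand.
FOS: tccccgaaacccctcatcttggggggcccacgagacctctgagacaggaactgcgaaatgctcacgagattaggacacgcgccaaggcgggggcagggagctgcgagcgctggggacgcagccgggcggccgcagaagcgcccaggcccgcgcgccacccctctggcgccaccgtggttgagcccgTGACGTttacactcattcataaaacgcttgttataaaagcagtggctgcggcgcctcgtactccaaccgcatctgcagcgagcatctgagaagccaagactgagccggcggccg
JUN: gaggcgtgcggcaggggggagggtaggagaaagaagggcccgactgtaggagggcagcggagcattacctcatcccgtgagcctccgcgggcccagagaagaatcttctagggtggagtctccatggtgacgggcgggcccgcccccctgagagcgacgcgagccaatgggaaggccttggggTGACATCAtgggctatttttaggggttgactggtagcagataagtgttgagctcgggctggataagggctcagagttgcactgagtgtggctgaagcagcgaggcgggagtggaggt
ATF3: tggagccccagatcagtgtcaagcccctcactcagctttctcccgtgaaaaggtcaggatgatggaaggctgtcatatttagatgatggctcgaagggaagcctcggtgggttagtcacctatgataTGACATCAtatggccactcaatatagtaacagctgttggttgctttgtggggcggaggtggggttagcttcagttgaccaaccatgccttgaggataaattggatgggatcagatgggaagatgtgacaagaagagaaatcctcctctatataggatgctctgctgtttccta
EGR1: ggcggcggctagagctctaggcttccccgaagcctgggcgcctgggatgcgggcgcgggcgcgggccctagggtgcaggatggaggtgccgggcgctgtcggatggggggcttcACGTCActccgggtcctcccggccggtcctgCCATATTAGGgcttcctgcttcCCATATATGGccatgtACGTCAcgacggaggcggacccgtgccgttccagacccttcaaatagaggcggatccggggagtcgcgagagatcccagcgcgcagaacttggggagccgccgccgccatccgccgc

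FOS held TGACGT 64 bases before its start, JUN held TGACATCA 67 bases before and ATF3 held TGACATCA 123 bases before. EGR1 held CArG boxes 105 and 83 bases before its start and the cAMP element core, on the other strand, 136 and 67 bases before. The table gave 9 promoters for 8 of the 10 genes, with a further start for ATF3, and FOSL1 and IER3 were not matched. FOSB and FOSL2 held TGACGT 60 and 66 bases before their starts, close to its place in FOS, and FOSL2 also held TGACTCA just after its start. JUND held TGACGT on both strands 200 and 198 bases before its start, as an overlapping pair, and again 87 bases before. No motif was found in JUNB or at the second ATF3 start. Which ATF3 start these cells use was not examined. Starts of ATF3 other than these 2 were not searched, so a site at its main promoter may have been missed. TGACGT stood in 5 of the 9 promoters, against 7.98% of all 35116 promoters in the table. TGACATCA stood in 2 of the 9, against 2.61% of all, and the CArG box in 1 of the 9, against 1.29%. TGACTCA stood in 1 of the 9, against 4.95% of all. The EGR sites GCGTGGGCG and GCGGGGGCG stood in 0 of the 9, against 0.795% and 5.07% of all. These matches are letters in a window and were not tested as binding sites. Sites more than 250 bases before a start were not searched, so a motif not found here may lie further upstream.

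The 4 arrays had like signal, with a median Cy5 signal of 36 to 40 units over a local background of 24 units, no saturated spots, and 63.3% to 67.0% of genes well above background in Cy5. Patches of deviating spots covered 3.24% of the untreated array, 4.60% of the 3 h array, 0.243% of the 6 h array and 0% of the 12 h array, and probes inside such a patch are named below as lying in a damaged area. All 8 epithelial markers (EPCAM, CDH1, KRT8, KRT18, KRT5, KRT14, KRT17 and EGFR) were well above background on all 4 arrays, and their summed Cy5 signal ran from 77489 to 103426 units. One of them, the adhesion protein gene CDH1, gave 3387 Cy5 units untreated, 5794 units at 3 h, 5480 units at 6 h and 5928 units at 12 h. Its log2 change from untreated was 0.69 at 3 h, and it rose by 1.03 at 6 h and 1.32 at 12 h. CDH1 was the only epithelial marker called at any time. Of the 7 measured, 4, 3 and 5 lay above 0 at 3, 6 and 12 h and 3, 4 and 2 below. Their median log2 changes were 0.065, -0.092 and 0.14. EGFR, for one, had -0.16, -0.67 and -0.43. KRT14, which had no measured change, counts in the summed signal. Its untreated spot, at 3621 Cy5 units against 10663 units at 3 h, fell inside a patch of deviating spots. The progesterone receptor gene PGR was well above background on 0 arrays, and so were the fibroblast markers COL3A1 and PDGFRA. ESR1, all 4 blood cell markers and PECAM1, CDH5 and COL1A1 passed that flag on 4 arrays, with a summed Cy5 signal of 1142 to 1526 units for the blood cell markers and 668 to 804 units for the endothelial and fibroblast markers. Of the markers of other cells, CD14 (0.24, 0.41 and 0.61) and COL1A1 (0.36, 0.44 and 0.67) had the largest log2 changes at 12 h, and ESR1 had 0.17, 0.21 and 0.02. Their part in the results was not tested.

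Each value below is a signal in scanner units before normalization, a normalized log2 ratio of Cy5 over Cy3, or the change of that ratio from the untreated array. A gene was called higher or lower where the change was at least 2-fold, a log2 change of 1, provided that Cy5 and Cy3 of the probe were well above background on each of the arrays compared. The error is the SD of the same log2 change between repeated spots of 300 probes printed 10 times each, which was 0.15 at 3 h, 0.12 at 6 h and 0.12 at 12 h. For dim genes (FOSB, FOSL2, JUNB and JUND) it was taken from the 27 dimmest of them and was 0.21, 0.14 and 0.16. It covers noise between spots only, and not the spread between cultures. All 14 probes were well above background in both channels on all 4 arrays, with 0 outlier flags and 1 spot each.

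At 3 h, 1 of the 10 genes was called higher (JUN) and 0 lower, where 1.69% of 20766 genes measured were called higher and 0.366% lower. At 6 h, 3 were called higher (ATF3, FOS and JUN) and 0 lower, where 2.81% of 20342 genes were called higher and 0.939% lower. At 12 h, 1 was called higher (ATF3) and 0 lower, where 2.34% of 20479 genes were called higher and 1.12% lower. The median log2 change over the 10 genes was 0.22 at 3 h, 0.30 at 6 h and 0.29 at 12 h, and that over all genes measured was 0.0075, 0.016 and 0.014. The 3 comparisons share the untreated array. The 10 genes did not move together: at 6 h their log2 changes ran from -0.99 for FOSL1 to 1.46 for ATF3.

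**Figure D1:**
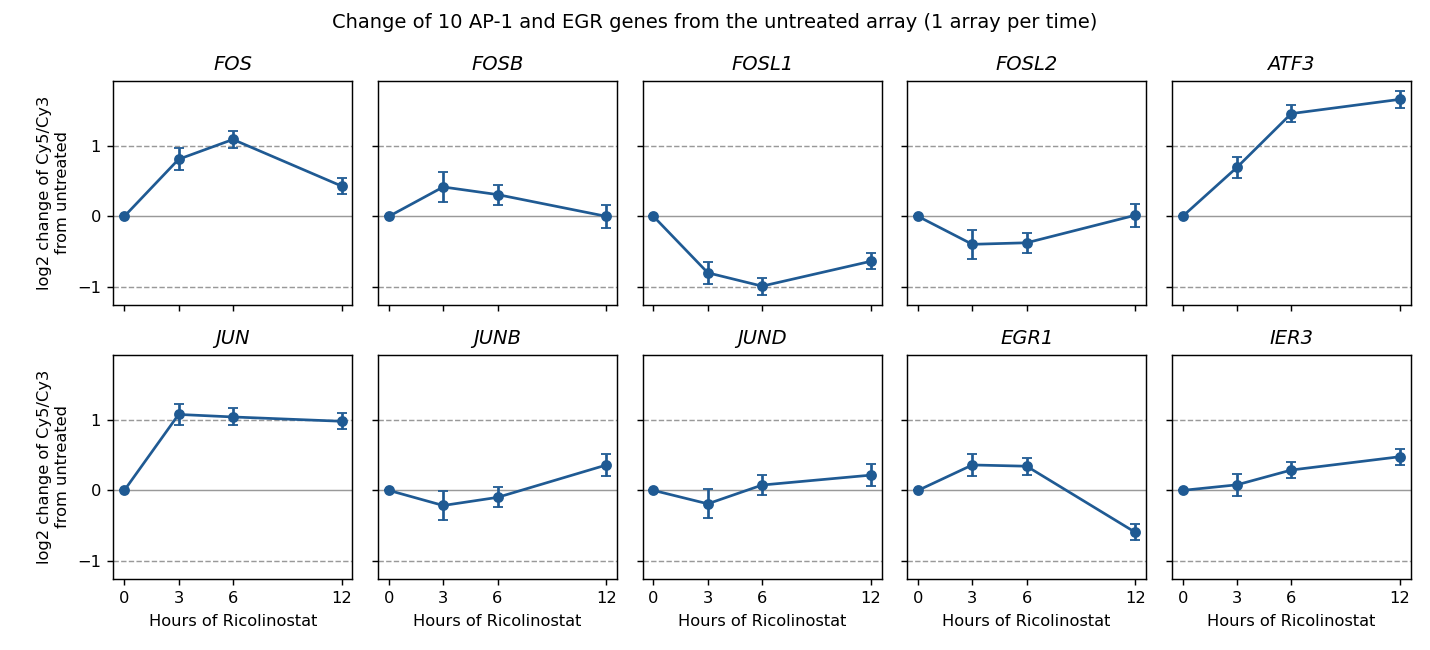
Log2 change of the Cy5/Cy3 ratio from the untreated array (y axis) against hours of Ricolinostat (x axis) for each of the 10 genes, 1 array per time, with bars of 1 SD between repeated spots. JUN stands near 1 at all 3 times, FOS is highest at 6 h, ATF3 reaches 1.66 at 12 h, FOSL1 lies below 0 throughout and EGR1 ends at -0.60.

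FOS, the founding member of its family and a partner of JUN, gave Cy5 signals of 237 units untreated, 490 units at 3 h, 414 units at 6 h and 232 units at 12 h. The treated arrays at 3 and 6 h stood above the untreated one, and the 12 h array stood level with it. The log2 change was 0.81 at 3 h, rose to 1.09 at 6 h (2.13-fold) and was 0.43 at 12 h. Of all genes measured, 2.17% had as high a change at 6 h and 12.9% at 12 h. The Cy3 signal of FOS lay between 2952 and 3396 units, above Cy5 on every array, so that its log2 ratio ran from -4.08 to -2.99. The relation of the reference to the samples and the bias between the dyes were not tested. The level of the ratio is thus not read as an amount of FOS. Changes from the untreated array cancel a reference shared by all arrays. The Cy5 channel taken alone put FOS at 0.80, 0.83 and 0.15, under the threshold at each time. The 6 h call of FOS was also lost with median centring of the arrays, at 0.95, and with the scanner software's processed signals, at 0.92.

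FOSB, a relative of FOS that is also induced by growth signals, was dim, with Cy5 signals of 69 units untreated, 113 units at 3 h, 92 units at 6 h and 77 units at 12 h. Its log2 change was 0.42 at 3 h, 0.31 at 6 h and 0.00 at 12 h. The order of the 3 times was that of a signal highest at 3 h, and no change passed the threshold. The 3 and 6 h changes lay within the SD between spots of one another, 0.22 for dim probes. The size depended on the processing, from 0.40 to 0.82 at 3 h and from 0.21 to 0.51 at 6 h. The sign at 12 h turned in 2 of 12 other ways of processing.

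FOSL1 (FRA-1), the FOS family member known for its part in invasive breast cancer cells, gave 1626 Cy5 units untreated, 935 units at 3 h, 615 units at 6 h and 798 units at 12 h. All 3 treated arrays stood below the untreated one, with the lowest at 6 h. The log2 change was -0.80 at 3 h, -0.99 at 6 h (1.99-fold lower) and -0.64 at 12 h, each larger in size than the SD between spots and none past the threshold. At 3 h 0.795% of genes measured had as low a change, at 6 h 0.949% and at 12 h 4.19%. FOSL1 thus lay just outside the threshold at 6 h, and the 6 h change came to between -1.01 and -1.23 in 6 of the other ways of processing. The Cy3 signal was 344 to 379 units, and the Cy5 channel alone gave -0.91, -1.20 and -0.69.

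FOSL2 (FRA-2), the remaining FOS relative, gave 94 Cy5 units untreated, 151 units at 3 h, 119 units at 6 h and 156 units at 12 h. Its log2 change in the ratio was -0.40 at 3 h, -0.37 at 6 h and 0.02 at 12 h, while the Cy5 channel alone gave 0.35, 0.26 and 0.68. On the untreated array the probe lay within a damaged area, where its Cy3 signal was 92 units against 177 to 183 units on the treated arrays. Signal and ratio thus went opposite ways at 3 and 6 h, and no direction is given for FOSL2.

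**Figure D2:**
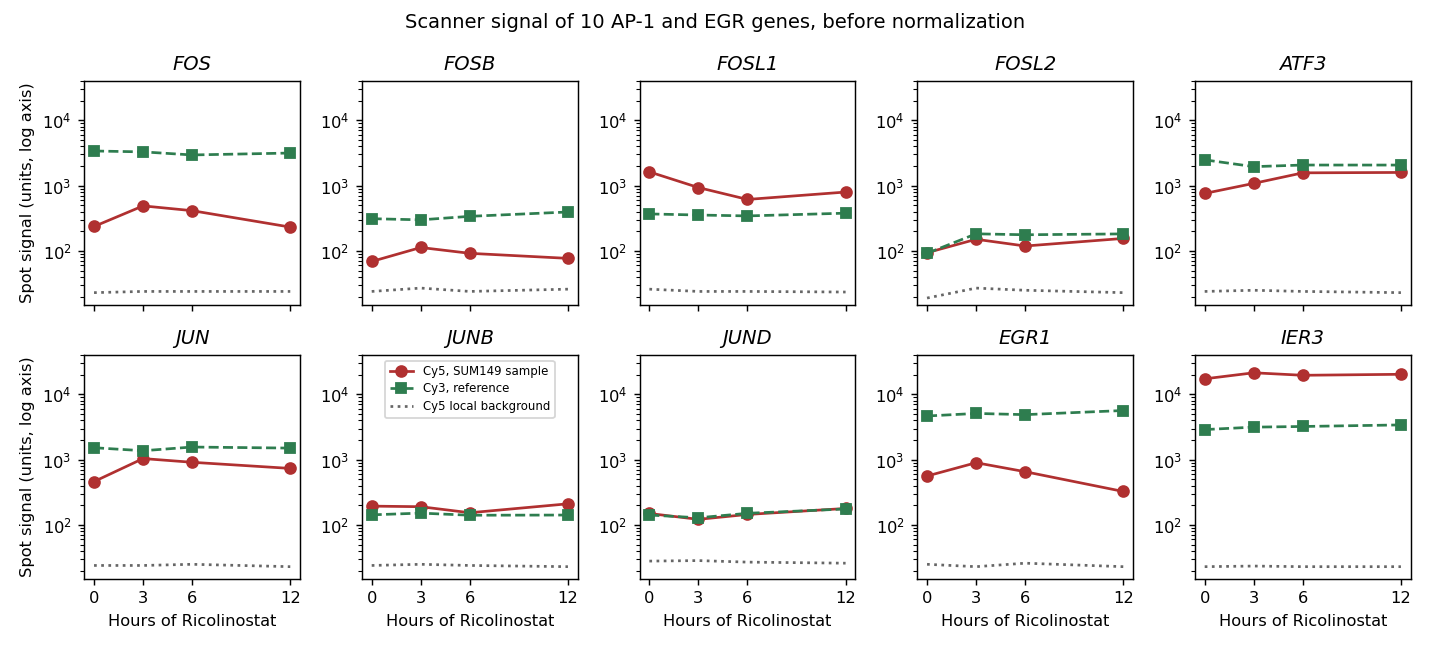
Spot signal in scanner units before normalization (y axis, log scale) against hours of Ricolinostat (x axis) for the probe that represents each gene, with the SUM149 sample in Cy5, the reference in Cy3 and the local Cy5 background. The reference of FOS and EGR1 lies above the sample on all 4 arrays, and the reference of FOSL2 is low on the untreated array only.

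JUN, which pairs with FOS and with ATF proteins, gave 462 Cy5 units untreated, 1041 units at 3 h, 913 units at 6 h and 735 units at 12 h. Every treated array stood above the untreated one. JUN rose by a log2 change of 1.08 at 3 h (2.11-fold) and 1.04 at 6 h (2.06-fold), and the change at 12 h was 0.98 (1.97-fold), just outside the threshold. The 3 changes differed from one another by no more than the SD between spots. At 3 h 1.30% of genes measured had as high a change, and at 6 h and 12 h 2.47%. Across the ways of processing, the change of JUN ran from 0.96 to 1.25 at 3 h, from 0.93 to 1.09 at 6 h and from 0.72 to 1.03 at 12 h, so that its calls lie at the threshold while its direction was the same in each. The 3 h call was lost with the Cy5 channel alone, at 0.96, and the 6 h call with median centring, at 0.93, and with the scanner software's signals and the authors' table, at 0.96 in each.

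JUNB, a JUN relative that can restrain JUN, gave Cy5 signals of 195 units untreated, 191 units at 3 h, 154 units at 6 h and 211 units at 12 h, with log2 changes of -0.21, -0.10 and 0.36. JUND, the JUN relative present in most resting cells, gave 150, 122, 145 and 179 units in the same order, with log2 changes of -0.19, 0.08 and 0.22. Neither gene passed the threshold at any time. For both, the change at 12 h was the highest of the 3. The log2 change of JUN was above those of JUNB and JUND at each time.

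ATF3, a stress-induced factor that pairs with JUN, had the largest change of the 10 genes at 6 and 12 h. The probe that represents it, chosen for the highest mean Cy3 signal of its probes, gave 760 Cy5 units untreated, 1084 units at 3 h, 1571 units at 6 h and 1593 units at 12 h. The untreated array was the lowest, and the 6 and 12 h arrays stood nearly level. The log2 change was 0.69 at 3 h, and ATF3 rose by 1.46 at 6 h (2.75-fold) and 1.66 at 12 h (3.16-fold). From 3 to 6 h the ratio gained 0.76 on the log2 scale and from 6 to 12 h a further 0.20. At 12 h 0.269% of genes measured had as high a change. The Cy5 channel alone gave 0.34, 1.17 and 1.34. The Cy3 signal of this probe was 2483 units on the untreated array and 1955 to 2069 units on the treated arrays.

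The 4 probes of ATF3 did not move alike. The second probe, A_24_P33895, gave 43 Cy5 units untreated, 53.5 units at 3 h and 68 units at 6 and at 12 h, with log2 changes of -0.01, 0.71 and 0.78. The third, A_33_P3214096, gave 123, 102, 102 and 113 units and log2 changes of 0.36, -0.07 and -0.05, with its 3 h spot in a damaged area. The fourth, A_33_P3214105, gave 151, 154, 128 and 135 units and log2 changes of -0.17, -0.10 and -0.06. The rise was thus carried by the brightest probe and in part by the second, and the median over the 4 probes was 0.32 at 6 h and 0.36 at 12 h, under the threshold. The annotation placed the fourth probe on another ATF3 transcript than the other 3 probes. Which part of the transcripts each probe reads was not examined here.

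**Figure D3:**
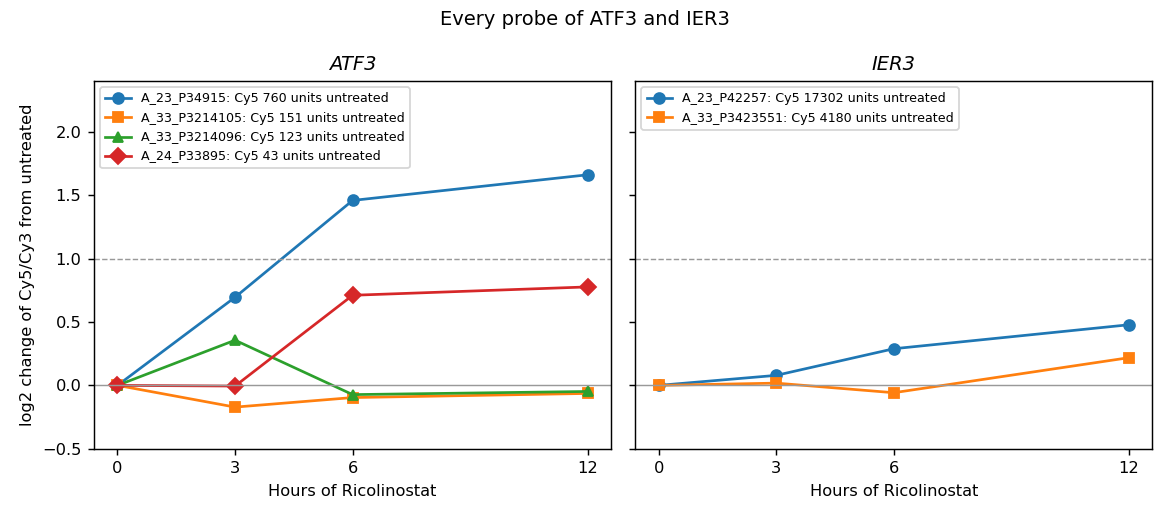
Log2 change of the Cy5/Cy3 ratio from the untreated array (y axis) against hours of Ricolinostat (x axis) for every probe of ATF3 and IER3, with the untreated Cy5 signal of each probe in the key and a dashed line at the threshold. The ATF3 probe with 760 units reaches 1.66 at 12 h, whereas the probes with 123 and 151 units stay within 0.2 of 0 at 6 and 12 h.

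The genes whose 3 changes lay nearest to those of ATF3, by Euclidean distance over 4 arrays and among 18561 candidates measured outside damaged areas, were ARG2, LRRC3 and IQCD. ARG2, the mitochondrial arginase, had log2 changes of 0.65 at 3 h, 1.37 at 6 h and 1.53 at 12 h, at a distance of 0.16. LRRC3 had 0.84, 1.37 and 1.66, at a distance of 0.17. IQCD had 0.82, 1.56 and 1.58, at a distance of 0.18.

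EGR1, the zinc finger factor whose promoter holds the pair of CArG boxes shown above, gave 562 Cy5 units untreated, 899 units at 3 h, 655 units at 6 h and 326 units at 12 h. The 3 h array was the highest of the 4 and the 12 h array the lowest. The log2 change was 0.36 at 3 h, 0.34 at 6 h and -0.60 at 12 h (1.51-fold lower), with none past the threshold. The log2 difference of the 12 h from the 6 h array was -0.94, against an SD between spots of 0.078, and stayed short of the threshold. At 12 h 4.95% of genes measured had as low a change from untreated as EGR1. The Cy3 signal was 4665 to 5661 units, above Cy5 on every array. The Cy5 channel alone gave 0.52, 0.35 and -0.47, and over the ways of processing the 12 h change ran from -0.94 to -0.47.

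IER3, an immediate early gene that acts in cell survival, was bright, with 17302 Cy5 units untreated, 21413 units at 3 h, 19608 units at 6 h and 20304 units at 12 h on its representative probe. Its log2 change was 0.08 at 3 h, 0.29 at 6 h and 0.48 at 12 h. The other probe gave 4181, 3492, 3534 and 4101 units, with log2 changes of 0.02, -0.06 and 0.22. No IER3 value passed the threshold, and the probes differed in sign at 6 h.

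By time, the change of largest size came at 3 h for FOSB, at 6 h for FOSL1 and at 12 h for ATF3, as it did for these 3 genes in each of the 12 other ways of processing. It came at 6 h for FOS and at 12 h for JUNB, EGR1 and IER3, and each of these 4 moved to another time in 1 of the 12. For FOS that was median centring, with 0.98 at 3 h and 0.95 at 6 h. The 3 and 6 h changes of FOSB lay within the SD of 0.22 between spots of dim probes. JUND was largest at 12 h and moved in 5 of the 12, and no time is given for JUN, whose changes lay within the SD of one another, or for FOSL2. Between treated arrays 0 of the 10 genes passed 2-fold in either direction, where 0.279% of genes did from 3 to 6 h, 0.126% from 6 to 12 h and 0.904% from 3 to 12 h. From 6 to 12 h the log2 difference was below 0 for FOS (-0.66), FOSB (-0.31), JUN (-0.06) and EGR1 (-0.94). It was above 0 for FOSL1 (0.35), FOSL2 (0.39), JUNB (0.46), JUND (0.14), ATF3 (0.20) and IER3 (0.19). All but that of JUN were larger in size than the SD between repeated spots, which was 0.078 between these arrays and 0.11 for dim probes.

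The other genes of the pathway were read from 7 lists, which were drawn up with earlier results of these data known. The partners of AP-1 in the BATF, JDP2, ATF and MAF groups were all measured, and 0 of the 11 passed the threshold at any time. Of all genes measured, 1.69%, 2.81% and 2.34% were called higher at 3, 6 and 12 h and 0.366%, 0.939% and 1.12% lower. In a list this short a count of 0 is close to those shares. The same holds for the EGR relatives, the serum response factor group and the EGR1 targets below. The median log2 changes of the 11 partners were -0.11 at 3 h, 0.047 at 6 h and 0.061 at 12 h. ATF7, a partner of JUN, had the largest change at 12 h, with -0.20, -0.61 and -0.86. Its other probe was not well above background on any array.

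Of the EGR relatives and the NAB corepressors that bind EGR proteins, 4 of 5 genes were measured and 0 passed the threshold, with medians of 0.24, 0.27 and 0.20 on the log2 scale. NAB2 had the largest change at 12 h, with 0.44, 0.27 and 0.46. EGR2 was dim, with 33, 76, 64 and 46.5 Cy5 units and log2 changes of 0.60, 0.54 and 0.29. The offset of 50 used in the processing makes the changes of such dim probes smaller. Serum response factor and its cofactors, the proteins of the CArG box, gave 0 of 6 past the threshold and medians of 0.025, 0.031 and 0.046. ELK4, one of these cofactors, had -0.51, -0.62 and -0.52, and its second probe had -0.07, -0.27 and -0.38.

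Of 14 kinases of the MAP kinase cascades, which carry the signals to these genes, 1 fell past the threshold at 6 h, where 0.939% of all genes did, and 0 rose at any time. MAP2K7, a kinase that activates JNK, gave 6076 Cy5 units untreated, 3045 units at 3 h, 1842 units at 6 h and 1962 units at 12 h. All 3 treated arrays stood below the untreated one. Its log2 change was -0.89 at 3 h and -0.90 at 12 h, and it fell by 1.20 at 6 h. The medians of the list were 0.10, -0.019 and 0.13. Of the 14 kinases, 9, 7 and 10 lay above 0 at 3, 6 and 12 h and 5, 7 and 4 below. MAP2K4, on the same list, had log2 changes of 0.34, 0.69 and 0.50.

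**Figure D4:**
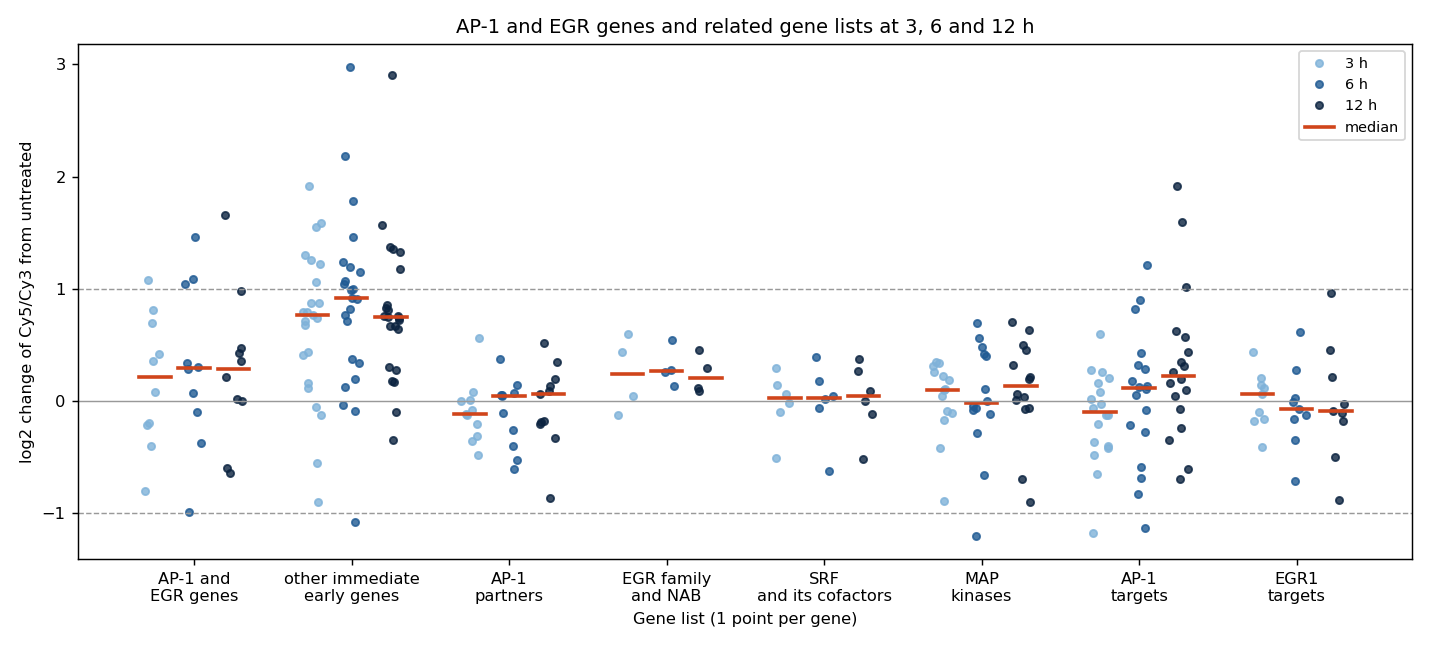
Log2 change of the Cy5/Cy3 ratio from the untreated array (y axis) for each measured gene (points) of the 10 AP-1 and EGR genes and of the other gene lists (x axis), by time, with the median of each as a bar. The other immediate early genes have medians of 0.77, 0.92 and 0.75, and the medians of the partners, cofactors, kinases and EGR1 targets lie near 0.

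Other immediate early genes were mostly higher on the treated arrays, with 19, 20 and 21 of 23 measured (of 24) above 0 at 3, 6 and 12 h, where 51.4%, 52.8% and 52.5% of all genes measured were. Of the 23, 7 were called higher at 3 h, 9 at 6 h and 6 at 12 h, and 0, 1 and 0 were called lower, where 1.69%, 2.81% and 2.34% of all genes were called higher and 0.366%, 0.939% and 1.12% lower. The median log2 changes were 0.77, 0.92 and 0.75. Because the list was drawn up with earlier results of these data known, its counts describe these arrays only. No difference from the 10 genes was tested. CYR61, a matricellular protein made within an hour of serum, gave 8471, 21883, 41241 and 34622 Cy5 units and rose by 1.55 at 3 h, 2.97 at 6 h and 2.90 at 12 h on the log2 scale. CTGF, its close relative, gave 126, 305, 725 and 440 units and log2 changes of 0.79, 2.18 and 1.57. CTGF was highest at 6 h. The 6 and 12 h changes of CYR61 lay within the SD of 0.078 between repeated spots.

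NR4A3, an orphan nuclear receptor, gave 43, 305.5, 232 and 165.5 Cy5 units and rose by 1.92, 1.78 and 1.36 on the log2 scale. Its 3 and 6 h changes lay within the SD of 0.14 between repeated spots. The other probe of NR4A3 was not well above background on any array. RHOB, a small GTPase, rose by 1.22, 1.46 and 1.38, with 0.62, 0.85 and 0.98 on its other probe. GADD45B, a stress sensor, rose by 1.26, 1.15 and 1.18 in the ratio and had 0.67, 0.97 and 0.75 in the Cy5 channel alone. NR4A2 had 1.06, 0.77 and 0.65, and its other probe 0.54, 0.16 and 0.26. The growth inhibitor BTG2 had 0.88, 1.04 and 0.81, KLF2 had 0.80, 1.20 and 0.86, and the kinase PLK2 had 0.68, 1.07 and 0.83. In the Cy5 channel alone these calls were lost, with 0.69 for BTG2, 0.99 for KLF2 and 0.85 for PLK2 at 6 h. The 3 h call of NR4A2 was lost too, at 0.66. MYC, the growth regulator, had -0.90 and -0.35 at 3 and 12 h and fell by 1.07 at 6 h.

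IER2 and KLF10 were called at 3 h alone, and DUSP1, the phosphatase that inactivates MAP kinases, at 6 and 12 h. All 3 probes lay in a damaged area of the 3 h array. IER2 had log2 changes of 1.30, 0.71 and 0.74, KLF10 of 1.59, 0.83 and 0.67, and DUSP1 of 0.74, 1.24 and 1.33. In the Cy5 channel alone the 3 h change of IER2 was -0.69 and that of KLF10 -0.44. Without probes in damaged areas, 5 of 20 genes were called higher at 3 h, and with the Cy5 channel alone 3 of 23 were.

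Of the genes known as AP-1 targets, 18 of 19 were measured, 0, 1 and 3 were called higher and 1, 1 and 0 lower at 3, 6 and 12 h. Of all genes measured, 1.69%, 2.81% and 2.34% were called higher and 0.366%, 0.939% and 1.12% lower. The medians were -0.093, 0.12 and 0.23. CXCL8, a neutrophil chemokine, gave 1654, 2329, 3563 and 6340 Cy5 units, with a log2 change of 0.21 at 3 h and rises of 1.21 at 6 h and 1.92 at 12 h. IL6, a cytokine, gave 327, 270, 392 and 976 units and log2 changes of -0.36, 0.33 and 1.59, with the 12 h array above the other 3. Its second probe, well above background on 1 array, had 0.03 at 12 h. IL11 had -0.06, 0.90 and 1.02.

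LIF, a further cytokine of that family, gave 636, 225, 182 and 329 Cy5 units and fell by 1.17 at 3 h and by 1.13 at 6 h, with -0.35 at 12 h. Its second probe, well above background on all 4 arrays and outside damaged areas, had -0.09, -0.14 and -0.08. On their representative probes the cytokine genes on the list thus differed in time and direction, with LIF lower early and CXCL8, IL6 and IL11 higher at 12 h. The early fall of LIF was not seen on its second probe. Of the genes known as EGR1 targets, 9 of 10 were measured and 0 passed the threshold, with medians of 0.067, -0.071 and -0.084. CDKN1A, the cell cycle inhibitor p21, had the largest change at 12 h, with 48, 71, 87 and 128 Cy5 units and log2 changes of 0.15, 0.62 and 0.96. It lay just outside the threshold at 12 h. The Cy5 channel alone gave 0.28, 0.60 and 1.11, past the threshold at 12 h.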

How the data were processed

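Per the labels, RNA was labelled with an Agilent low-input kit. The deposited scanner files hold intensity values, the median Cy5 and Cy3 signals and backgrounds of 62976 spots, read with Agilent Feature Extraction 12.0.1.1 per the submitters' processing notes. A further table of the authors holds normalized log2 ratios, by a method not given in the sources used here. It gave the gene symbols and served as an alternative. Signals were corrected with normexp (offset 50), loess within arrays and Aquantile between arrays (limma 3.58.1 in R 4.3.3), repeated spots were averaged, and a gene was read from its probe of highest mean Cy3 signal. Changes are log2 ratios minus those of the untreated array. A spot was in a damaged area where at least 10% of the spots in a window of 13 rows by 7 columns carried an outlier flag or a Cy3 signal over 2-fold from the median array. Other steps used Python 3.11.15, and the normalization was tested on simulated data with 4-fold changes in bright spots. That test does not cover changes near 2-fold or dim genes. The number of arrays, 1 per time point, limits the precision. The 10 genes and the lists were chosen with earlier results of these data known. Named beyond the 10 are genes of the lists, markers included, called at any time, the gene of each list with the largest 12 h change, and the 3 nearest to ATF3. EGR2 and MAP2K4 were named after their values were seen. For the 10 genes 14 alternatives were planned, and 5 of these settings were also run on the other immediate early genes, a choice made after seeing the data.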

Additional observations from a re-analysis of the deposited data

Results flagged for a closer look

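EGR1 had log2 changes from untreated of opposite sign, 0.36 at 3 h and -0.60 at 12 h, a difference of 0.96. JUNB had -0.21 at 3 h and 0.36 at 12 h, a difference of 0.57. Each value rests on 1 array per time, and neither difference was tested.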

How the results depend on the processing

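No paired analysis was possible because the design has a single array for each time. Of 357 values of the 10 genes under other settings, 171 equalled the reported value, most of them because the setting could not change it: the probes all passed the filters, most genes have 1 probe, and leaving out Aquantile leaves ratios as they are. Of the 186 that differed, 134 did so by no more than 1 SD between spots and 52 by more. Over these values 9 calls ended, 9 started and 0 calls of the 10 genes turned sign. Of 135 counts and medians, 75 equalled the reported value and 60 differed. The cause was not tested. At 6 h 2.81% of all genes were called higher and 0.939% lower, and at 12 h 2.34% higher. With a normexp offset of 1, 1 of the 10 genes was called lower at 6 h (FOSL1; all genes 2.30%) and 2 higher at 12 h (ATF3 and JUN; all genes 4.48%). With no background subtraction the counts were again 1 lower at 6 h (all genes 1.45%) and 2 higher at 12 h (all genes 3.45%). With median centring, 1 was called higher at 6 h (all genes 2.11%) and 1 lower (all genes 1.99%). The median log2 change of the 10 was then 0.11 at 6 h and 0.056 at 12 h, and that of all genes 0.076, -0.084 and -0.16 at 3, 6 and 12 h. With the scanner software's processed signals, 1 was called higher at 6 h (all genes 4.75%) and 2 lower (all genes 3.81%), the latter FOSL1 (-1.10) and FOSL2 (-1.05). With the authors' table, 1 was called lower at 6 h (all genes 2.27%). With the Cy5 channel alone, 0 were called higher at 3 h (all genes 1.30%) and 1 lower at 6 h (all genes 1.40%), and 3 other immediate early genes were called higher at 3 h. With the median over a gene's probes, 0 were called higher at 12 h (all genes 1.92%). At 1.5-fold, 3 genes were called higher and 1 lower at 3 h, 1 lower at 6 h, and 2 higher and 2 lower at 12 h, where 6.87%, 9.40% and 8.09% of all genes were called higher and 1.96%, 4.42% and 5.13% lower. At 4-fold, 0 were called higher at 3, 6 or 12 h.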
